A study of Mus musculus with 20 samples.

Results

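The glutamine synthesis and transport genes Glul, Slc1a5, Slc38a2 and Got1 were followed in SIMS cells, an established line from mouse salivary gland. They are 4 of 55471 genes in the deposited gene table, and they were chosen by name. The gene counts of the Zcchc8 knockout (KO) clones against wild type, and the upstream counts described below, were known when the names were picked, so those contrasts are given as descriptions without a test. The samples were wild-type cells, a Btbd7 KO line that the study used as its negative control, and 3 Zcchc8 KO clones. Each of these 5 groups had 4 libraries of total RNA. The KO lines were made with CRISPR/Cas9 and all cells grew in DMEM with 10% fetal bovine serum. Each Zcchc8 clone is 1 line, and no label says whether the 4 libraries of a line came from separate cultures. The p-values therefore measure the spread between libraries, which may be technical.

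Glutamine carries nitrogen between cells and donates it to nucleotides, amino sugars and asparagine. Glul encodes glutamine synthetase, which joins ammonia to glutamate. Slc1a5 (ASCT2) and Slc38a2 (SNAT2) encode sodium-dependent carriers of neutral amino acids that move glutamine across the plasma membrane, and Slc38a2 is known to be induced when amino acids are short. Got1 encodes the cytosolic aspartate aminotransferase, which swaps the amino group between glutamate and aspartate and serves the malate-aspartate shuttle. Zcchc8 is a subunit of the nuclear exosome targeting complex, which hands short-lived nuclear RNAs to the exosome. Promoter upstream transcripts (PROMPTs), made upstream of active promoters, are among its known targets, and the deposited data count reads in 1 such upstream region per gene.

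All positions are from GENCODE release M21 on GRCm38. Glul (ENSMUSG00000026473) lies on the plus strand at chr1:153899944-153909723 and Slc1a5 (ENSMUSG00000001918.17) on the plus strand at chr7:16781340-16798274. Slc38a2 (ENSMUSG00000022462.7) lies on the minus strand at chr15:96687392-96699730 and Got1 (ENSMUSG00000025190.13) on the minus strand at chr19:43499752-43524605. All 4 are protein coding. The sequence just upstream of the start is shown because the upstream counts bear on it. RefSeq's table for GRCm38.p6 matched 3 of the 4 genes, each with up to 250 bases before its RefSeq start, printed 5′ to 3′ on the gene's strand. Capitals mark matches, on either strand, to the poly(A) signal hexamer AATAAA, the CCAAT box CCAAT or the C/EBP-ATF response element TGATGNAA.
Glul, chr1:153899679-153899928, plus strand: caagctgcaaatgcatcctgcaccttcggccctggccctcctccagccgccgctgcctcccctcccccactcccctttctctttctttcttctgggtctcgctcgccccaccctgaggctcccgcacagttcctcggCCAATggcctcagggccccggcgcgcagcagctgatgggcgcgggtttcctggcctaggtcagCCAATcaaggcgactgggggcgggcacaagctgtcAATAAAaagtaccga
Slc38a2, chr15:96699731-96699978, minus strand: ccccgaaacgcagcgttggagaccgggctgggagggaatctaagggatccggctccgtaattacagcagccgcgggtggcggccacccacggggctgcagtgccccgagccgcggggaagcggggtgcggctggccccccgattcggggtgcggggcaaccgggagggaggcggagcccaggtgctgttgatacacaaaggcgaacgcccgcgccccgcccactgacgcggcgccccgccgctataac
Got1, chr19:43524606-43524855, minus strand: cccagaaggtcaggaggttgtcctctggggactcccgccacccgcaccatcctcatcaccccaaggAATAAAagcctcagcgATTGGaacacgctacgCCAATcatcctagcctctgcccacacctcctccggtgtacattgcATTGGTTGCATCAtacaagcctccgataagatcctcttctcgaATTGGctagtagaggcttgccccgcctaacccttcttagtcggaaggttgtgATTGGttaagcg

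The Glul window held AATAAA 15 bases before the start and CCAAT at 113 and 50 bases, all on the gene's own strand. The Got1 window held 5 CCAAT boxes, 4 of them on the opposite strand, and AATAAA at 184 bases before the start. It also held TTGCATCA, a match to TGATGNAA on the opposite strand, 102 bases before the start, directly next to a CCAAT box, so that both stand in 1 run of capitals. No match to these motifs was found in the Slc38a2 window, and none of the 3 windows held the E-box CACGTG. No matches overlapped. Among 32851 mouse promoter windows of 250 bases, 18.1% held AATAAA, 33.8% CCAAT, 6.02% CACGTG and 3.45% TGATGNAA. A match describes the letters only and no binding was measured.

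Libraries held 6833258 to 17771804 gene counts, with clone 1 the shallowest group (6833258 to 7683444). Wild-type replicate 1 stood apart: only 14245 genes were detected, whereas the 19 others detected 17442 to 20889. It is not in the PROMPT table, so values are also given without it. Zcchc8 RNA averaged 65.1 ± 2.92 CPM (counts per 1000000 TMM-scaled gene counts; SD, n = 4) in wild type, 60.3 ± 4.29 in clone 1, 23.3 ± 1.35 in clone 2 and 54.6 ± 4.84 in clone 3. Only clone 2 was clearly low. Clone 3 was slightly lower than wild type, by 0.26 on the log2 scale (adjusted p = 0.0135 by edgeR), and clone 1 was not called (adjusted p = 0.291). Where the edits lie was not given in the sources used here, so RNA level does not check the labels of clones 1 and 3. Btbd7 RNA averaged 99.2 ± 3.23 CPM in its KO line against 202 ± 7.64 in wild type. The duct epithelial markers Krt7, Krt8, Krt18, Krt19, Epcam and Cdh1 summed to 2876 to 4566 CPM in wild type and 3753 to 3884 in Btbd7 KO. In clones 1, 2 and 3 they summed to 2706 to 3267, 3107 to 3508 and 2698 to 3093 CPM. Every Zcchc8 KO library thus lay below every Btbd7 KO library in this sum. Epcam went the other way and averaged lower in Btbd7 KO than in each clone. The acinar markers Aqp5, Bhlha15 and Amy1 summed to 167 to 188 CPM in wild type, 109 to 115 in Btbd7 KO, 136 to 164 in clone 1, 127 to 155 in clone 2 and 115 to 124 in clone 3, with Amy1 at 0 to 9 counts. Fibroblast markers (Col1a1, Col1a2, Pdgfra) summed to 9.3 to 14.9 CPM in wild type, 16.6 to 26 in Btbd7 KO, 9.88 to 13.4 in clone 1, 24.4 to 28.1 in clone 2 and 21.1 to 25 in clone 3. Leukocyte and endothelial markers (Ptprc, Cd68, Pecam1) summed to 4.87 to 6.19 CPM in wild type, 5.44 to 6.59 in Btbd7 KO, 8.07 to 14 in clone 1, 9.26 to 11.4 in clone 2 and 4.5 to 6.76 in clone 3, with Ptprc at 0 in every wild-type library. The acinar sum was thus lower in every edited line than in wild type, the fibroblast sum higher in Btbd7 KO and clones 2 and 3, and the leukocyte and endothelial sum higher in clones 1 and 2. Each of these sums was carried mostly by 1 gene: in wild type Aqp5 averaged 178 CPM, Col1a1 11.4 CPM and Cd68 5.55 CPM. The other members did not all move with them. Bhlha15 and Amy1 averaged higher than wild type in clone 3 but lower in the other edited lines. Pdgfra averaged higher in Btbd7 KO but lower in clones 2 and 3. The part of these markers in the results below was not tested. In bulk RNA, fewer cells of a type and less RNA per cell cannot be told apart.

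Levels between genes were compared per kilobase of merged exon. In wild type, Slc38a2 stood at 97.9 ± 18.6 CPM per kilobase (SD, n = 4), Got1 at 18.1 ± 2.77, Slc1a5 at 12.4 ± 1.14 and Glul at 2.25 ± 0.464. Slc38a2 was thus the most abundant of the 4 RNAs and the glutamine synthetase RNA the scarcest. All 4 genes passed the filter on low counts.

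Glul RNA was lower in all 3 Zcchc8 KO clones than in wild type, and the clones differed in how low. The wild-type libraries (replicates 1 to 4) stood at 8.39, 7.52, 5.31 and 8.74 CPM, and the Btbd7 KO libraries at 10.1, 8.1, 11.8 and 12.8 CPM. Clone 1 stood at 3.65, 2.17, 2.03 and 2.42 CPM, clone 2 at 4.52, 2.49, 4.91 and 4.7 CPM, and clone 3 at 0.641, 1, 2.17 and 1.16 CPM. Every Zcchc8 KO library lay below every wild-type and Btbd7 KO library, while Btbd7 KO and wild type overlapped. The share of all genes with such a separation of libraries was not computed, here or for the genes below. Separation is therefore given as a description only. On the log2 scale of the fitted fold change, the clones' mean was -1.68 (SE 0.21) against wild type, which is 31.1% of the wild-type level. The percentages of wild type were 34.4% in clone 1, 55.3% in clone 2, 15.9% in clone 3 and 142% in Btbd7 KO. Without wild-type replicate 1 the clones' mean was -1.61. The counts behind these values were small, with 71 to 149 reads per wild-type library, 14 to 28 in clone 1, 33 to 86 in clone 2 and 8 to 17 in clone 3.

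Clones were compared with each other by edgeR over all genes. The values of each clone were known when the genes were picked, so these p-values, here and for the other 3 genes, are not independent of that choice. For Glul the edgeR quasi-likelihood test that the 3 clones are equal gave an adjusted p of 0.000367. Clone 3 was lower than clone 2 by 1.80 on the log2 scale (SE 0.32, adjusted p = 0.00016) and lower than clone 1 by 1.11 (SE 0.35, adjusted p = 0.0317). The difference of clone 1 from clone 2, -0.69 (SE 0.30), did not pass (adjusted p = 0.116). Library ranges of clones 1 and 2 overlapped, as did those of clones 1 and 3. By this equality test 3 of the 4 genes were called (Glul, Slc1a5 and Slc38a2), against 28.5% of all 15297 genes tested. Between pairs of clones, the genes called among the 4 were Slc1a5 and Slc38a2 for clones 1 and 2 (21.5% of all genes), Glul and Slc38a2 for clones 1 and 3 (14.2%), and Glul, Slc1a5 and Slc38a2 for clones 2 and 3 (17.8%).

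**Figure D1:**
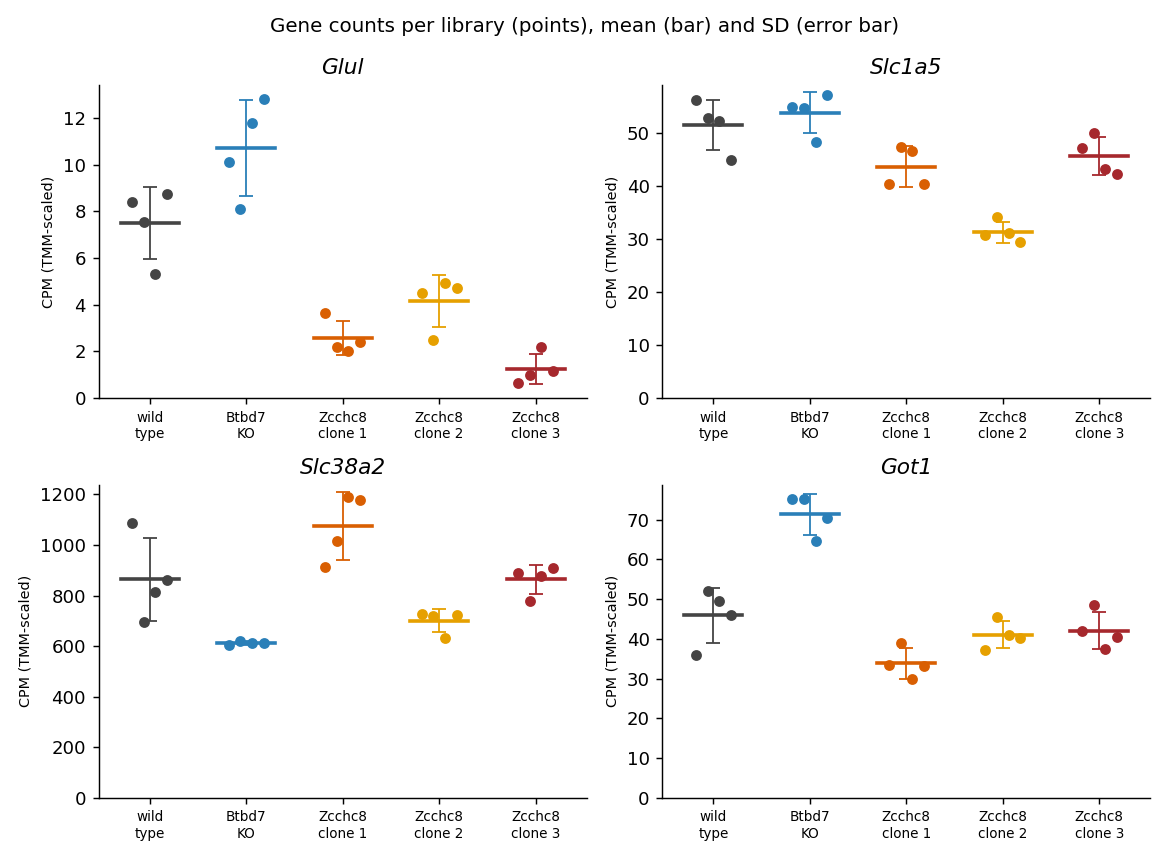
CPM of the 4 genes in each library (points) of the 5 groups, with the group mean (bar) and SD (error bar), n = 4 per group and a linear axis per gene that starts at 0. Glul lies below every control library in all 12 Zcchc8 KO libraries, whereas the other genes overlap with wild type in at least 1 clone. The share of all genes that separate in this way was not computed.

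Slc1a5 RNA, for the obligate exchanger ASCT2, was modestly lower in Zcchc8 KO, with clone 2 standing apart. Wild type stood at 56.3, 52.8, 52.3 and 45 CPM and Btbd7 KO at 55, 54.8, 48.3 and 57.3 CPM. Clone 1 stood at 40.4, 47.4, 46.6 and 40.4 CPM, clone 2 at 30.7, 34.1, 31.1 and 29.4 CPM, and clone 3 at 47.2, 50, 43.3 and 42.4 CPM. All 4 clone 2 libraries lay below every other library, and the remaining 4 groups overlapped with their neighbours in the order of means. The clones' mean stood at 77% of wild type, a log2 fold change of -0.38 (SE 0.07), and at -0.31 without wild-type replicate 1. By clone the percentages were 84.7% in clone 1, 60.8% in clone 2 and 88.6% in clone 3, against 105% in Btbd7 KO.

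The clones differed in Slc1a5 (equality test, adjusted p = 5.59e-05 by edgeR). Clone 2 was lower than clone 1 by 0.48 on the log2 scale (SE 0.09, adjusted p = 0.000296) and lower than clone 3 by 0.54 (SE 0.09, adjusted p = 5.89e-05). Clones 1 and 3 differed by -0.07 (SE 0.09), which did not pass (adjusted p = 0.742).

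Slc38a2 RNA, for the inducible carrier SNAT2, stood on either side of wild type in different clones, and the clones' mean was at a log2 fold change of 0.00 (SE 0.08). Wild type stood at 1088, 696, 814 and 862 CPM, the widest spread of any group, with replicate 1 the highest. The Btbd7 KO libraries were tightly grouped at 604, 621, 614 and 612 CPM. Clone 1 stood at 911, 1015, 1191 and 1177 CPM, clone 2 at 727, 717, 632 and 722 CPM, and clone 3 at 889, 779, 878 and 909 CPM. Btbd7 KO lay below every other library, clone 2 lay below all of clones 1 and 3, and wild type overlapped with each of the 3 clones. With clone 1 the overlap came only from wild-type replicate 1, and the other wild-type libraries lay below all of clone 1. Against wild type the log2 fold changes were 0.31 (SE 0.09) in clone 1, -0.31 (SE 0.09) in clone 2, 0.00 (SE 0.09) in clone 3 and -0.50 (SE 0.09) in Btbd7 KO. Without wild-type replicate 1 they were 0.46, -0.15, 0.14 and -0.36, so the value of clone 2 rests in part on that library.

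All pairs of clones differed in Slc38a2 (equality test, adjusted p = 5.37e-05 by edgeR). The wild-type level does not enter these differences, but all groups share 1 estimate of the spread. The same test gave 1.16e-08 with only the clones in the fit and 1.51e-09 without wild-type replicate 1. Clone 1 was higher than clone 2 by 0.62 on the log2 scale (SE 0.09, adjusted p = 2.06e-05) and higher than clone 3 by 0.31 (SE 0.09, adjusted p = 0.0249). Clone 2 was lower than clone 3 by a log2 difference of -0.31 (SE 0.09, adjusted p = 0.0236).

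Got1 RNA was set apart most by the negative control line. Wild type stood at 36, 52, 49.5 and 46 CPM and Btbd7 KO at 75.2, 75.3, 64.5 and 70.4 CPM. Clone 1 stood at 33.3, 39, 29.8 and 33.1 CPM, clone 2 at 37.3, 45.5, 41 and 40.1 CPM, and clone 3 at 41.9, 48.5, 37.5 and 40.4 CPM. Every Btbd7 KO library lay above every other library, and wild type overlapped with each Zcchc8 clone. With clones 1 and 2 the overlap came only from wild-type replicate 1. The other wild-type libraries lay above every library of clones 1 and 2. Btbd7 KO was at 156% of wild type, a log2 fold change of 0.64 (SE 0.10). The clones' mean was at 84.6% of wild type, or -0.24 (SE 0.08), with clone 1 at 73.8%, clone 2 at 89.5% and clone 3 at 91.6%. Without wild-type replicate 1 the mean was -0.32. The same clones stood at -0.88 (SE 0.08) when Btbd7 KO was the control, so the size of the difference depended on the control line.

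The equality test of the clones did not pass for Got1 (adjusted p = 0.0632 by edgeR), and neither did any pair. Clone 1 differed from clone 2 by -0.28 (SE 0.11, adjusted p = 0.0738) and from clone 3 by -0.31 (SE 0.11, adjusted p = 0.0602). Clones 2 and 3 differed by -0.03 (SE 0.11, adjusted p = 0.903). The test lay near its threshold: it gave 0.0151 when only the 3 clones entered the fit, and 0.0124 without wild-type replicate 1.

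**Figure D2:**
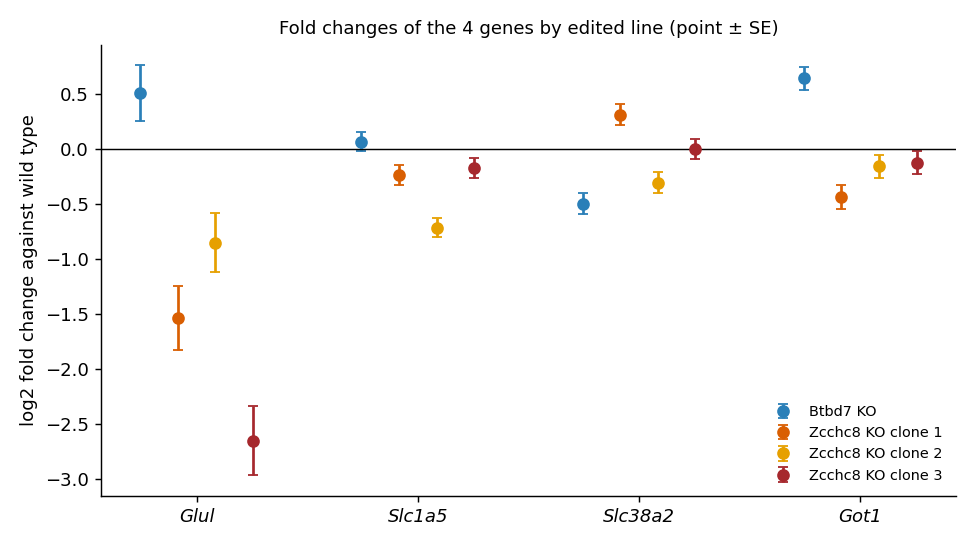
Fitted log2 fold change of the 4 genes against wild type in Btbd7 KO and in each Zcchc8 KO clone, with the standard error as error bar and 0 marking the wild-type level. Glul lies below 0 in the 3 clones, from -0.85 to -2.65, Slc38a2 lies on both sides of 0, and Got1 lies highest in Btbd7 KO at 0.64.

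With Btbd7 KO in place of wild type as the control, the log2 fold change of the clones' mean for Glul stood at -2.19 (SE 0.21), Slc1a5 at -0.44 (SE 0.07), Slc38a2 at 0.50 (SE 0.08) and Got1 at -0.88 (SE 0.08).

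In the upstream regions, counts were higher in Zcchc8 KO than in wild type for Got1 and Slc38a2, and were too few to describe for Glul and Slc1a5. The PROMPT table held 19 libraries, with 3 of wild type (replicates 2 to 4). Library sizes were those of the gene table. Only 2 of the 4 regions, Slc38a2 and Got1, passed the filter on low counts. Both passed through the Zcchc8 KO libraries, since no wild-type or Btbd7 KO library exceeded 0.405 CPM in either region. Across all 17617 regions tested, 39.2% were called higher in the mean of the clones. Other regions may have entered in the same way, so this share is a description only. How far a region reaches, and whether its counts use strand, was not given in the sources used here, so a count may include reads of an overlapping transcript. Counting intervals below are exact 95% Poisson intervals and cover counting error only.

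The Got1 region gave 7, 0 and 0 counts in wild type and 0, 1, 2 and 2 in Btbd7 KO. It gave 28, 7, 12 and 12 counts in clone 1, 4, 22, 43 and 10 in clone 2, and 22, 3, 7 and 16 in clone 3. All 12 Zcchc8 KO libraries had counts, while all wild-type counts came from replicate 2. Pooled over libraries and scaled for depth, the clones were 9.93-fold higher than wild type (95% interval of the ratio 4.72 to 25) and 15-fold higher than Btbd7 KO (6.32 to 46.8). Clones 1, 2 and 3 had ratios to wild type of 13.5, 10.1 and 7.35. Leaving out wild-type replicate 3 or 4 gave 7.14 and 6.38. Without replicate 2, wild type had no count. With wild type set to a floor of 3 counts over the group, the clones were then 14.8-fold higher. Per 1000 Got1 gene counts, the region held 2.99 counts in wild type (1.2 to 6.15), 1.34 in Btbd7 KO (0.435 to 3.12), 58.4 in clone 1 (44.5 to 75.4), 35.8 in clone 2 (28.3 to 44.6) and 25.8 in clone 3 (19 to 34.2). The upstream signal and the gene signal of Got1 thus stood in different orders across groups, since Btbd7 KO had the most gene RNA, while its upstream counts were as few as those of wild type within the intervals.

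The Slc38a2 region gave no count in any of the 3 wild-type libraries and 4, 0, 2 and 1 in Btbd7 KO. It gave 4, 12, 7 and 15 counts in clone 1, 5, 13, 16 and 17 in clone 2, and 4, 1, 8 and 8 in clone 3. Each of the 12 Zcchc8 KO libraries had at least 1 count. With wild type set to a floor of 3 counts over the group, the clones were 13.7-fold higher. Clone 1 was 20.3-fold, clone 2 15.2-fold and clone 3 7.5-fold higher. These folds leave out the counting error of the clones and are no strict bounds. In pooled CPM the counting intervals were 0.902 to 1.75 in clone 1, 0.712 to 1.26 in clone 2 and 0.292 to 0.721 in clone 3. In wild type the interval reached 0.0773 CPM. The clones were 6.34-fold higher than Btbd7 KO (2.98 to 16.1). Per 1000 Slc38a2 gene counts the region held at most 0.098 in wild type, 0.222 in Btbd7 KO (0.0892 to 0.457), 1.19 in clone 1 (0.842 to 1.63), 1.38 in clone 2 (1.03 to 1.82) and 0.539 in clone 3 (0.334 to 0.825). Per gene count, the Slc38a2 region was thus far weaker than that of Got1 in each clone. This ratio is not scaled for the length of the gene or the region. The pooled upstream levels themselves were closer. In clones 1, 2 and 3 they were 1.27, 0.956 and 0.472 CPM for Slc38a2, and 1.98, 1.48 and 1.08 CPM for Got1.

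The clones were not shown to differ in either region: the edgeR equality test gave an adjusted p of 0.421 for Slc38a2 and 0.565 for Got1, against 10.9% of all regions called. For Slc38a2, the largest difference between clones was that of clone 1 from clone 3, 1.37 on the log2 scale (SE 0.71, adjusted p = 0.347). For Got1 it was the same pair, at 0.95 (SE 0.60, adjusted p = 0.471). With standard errors of this size, differences as large as these were not detectable at this depth.

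The Glul region gave 0, 1 and 0 counts in wild type, 0, 0, 1 and 0 in Btbd7 KO, 0, 1, 0 and 0 in clone 1, none in clone 2 and 0, 1, 1 and 0 in clone 3. At most 1 read per library leaves a difference undetectable, and the gene with the lowest RNA in Zcchc8 KO had at most 2 upstream counts in any group. The Slc1a5 region gave 5, 0 and 4 counts in wild type, 0, 2, 0 and 0 in Btbd7 KO, 2, 1, 2 and 4 in clone 1, 0, 7, 2 and 0 in clone 2 and 5, 0, 4 and 9 in clone 3. Wild type and all 3 clones overlapped for Slc1a5.

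**Figure D3:**
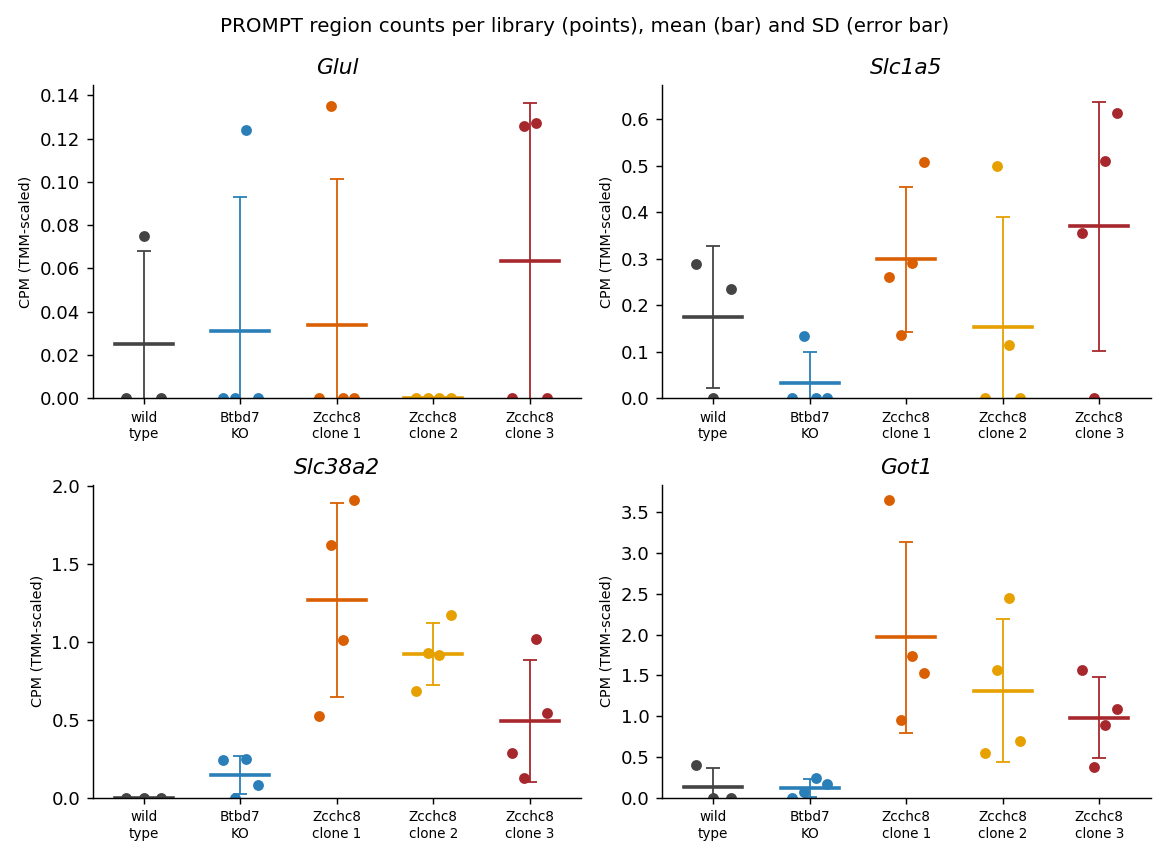
CPM of the upstream PROMPT region of each gene in each library (points), with the group mean (bar) and SD (error bar, not drawn below 0), for 3 wild-type libraries and 4 of each other group. The Slc38a2 and Got1 regions have higher means in each clone than in wild type and Btbd7 KO, and the Glul region has at most 1 count in any library.

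Annotated genes within 5 kilobases upstream were checked, because their reads could be counted there. Gm38144, annotated as TEC, a class of transcripts that await experimental support, lies on the opposite strand 442 bases upstream of Slc38a2 at chr15:96700173-96700637. It had 0 counts in wild type, 5 in Btbd7 KO, 26 in clone 1, 21 in clone 2 and 9 in clone 3, summed over 4 libraries, so it was high where the Slc38a2 region was high, and reads of the 2 features cannot be told apart here. The long noncoding RNA AC138790.3, on the opposite strand 3706 bases upstream of Got1, had at most 2 counts per library. Teddm2 overlaps the start of Glul on the opposite strand and had at most 3 counts per library, and the microRNA gene Mir8114 at that start had 0 in all 20. Slc1a5 had no annotated gene in this window.

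The wider glutamine network was read from lists of 52 genes without the 4 above, of which 41 passed the filter on low counts. The lists were drawn up with earlier results of these data known, so their counts are not independent evidence of a direction. In the mean of the Zcchc8 KO clones, 23 of the 41 fell against wild type, 1 rose and 17 did not pass (edgeR, adjusted p under 0.05), beside 19.9% and 16.2% of all genes. The median log2 fold change over the 41 was -0.22, and over all genes it was -0.01. Among enzymes that make or use glutamine and glutamate, 13 of 20 tested fell and 0 rose. Among amino acid carriers 6 of 11 fell and 0 rose, in the malate-aspartate shuttle 1 of 6 fell, and of 5 regulators 4 fell and 1 rose. The shuttle gene that fell was Got2, which is also counted among the enzymes. With each cell line taken as 1 replicate (3 clones against wild type and Btbd7 KO), only Gclm (adjusted p = 0.0174) and Aldh18a1 (adjusted p = 0.0185) were called lower and 0 higher, with 15 lower and 1 higher at an unadjusted p under 0.05 of 42 tested. Without wild-type replicate 1 the counts were 23 and 1 again, but the set changed. Ppat and Nr3c1 were no longer called lower, while Mdh1 and Mdh2 were.

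Of the 23, 8 fell in the mean and in each clone: Asns, Aldh18a1, Gclc, Gclm, Gmps, Ctps, Slc1a4 and Slc3a2. Of all genes, 19.1% were called lower in clone 1, 16.2% in clone 2 and 15.3% in clone 3, each taken alone. The share of all genes called lower in the mean and in every clone was not computed. The count of 8 therefore has no direct comparison. Slc1a4 (ASCT1), the nearest relative of Slc1a5 among these carriers, fell by 1.12 on the log2 scale (SE 0.12, adjusted p = 1.16e-07), from 32.8 ± 4.59 CPM in wild type to 10.1 ± 2.91 in clone 1, 14.7 ± 3.07 in clone 2 and 23.5 ± 3.54 in clone 3. Asns, the asparagine synthetase that spends glutamine's amide group, fell by 0.75 (SE 0.08, adjusted p = 4.42e-08), least in clone 3, at -0.26 with an adjusted p of 0.0498. Gclc and Gclm, the 2 subunits of the enzyme that joins glutamate to cysteine for glutathione, fell by 0.75 (SE 0.08, adjusted p = 6.62e-08) and 0.71 (SE 0.08, adjusted p = 2.48e-07). Aldh18a1, which turns glutamate toward proline, fell by 0.67 (SE 0.06, adjusted p = 7.05e-09). In Btbd7 KO Aldh18a1 rose by 0.35 (SE 0.08, adjusted p = 0.00244). Ctps and Gmps, which use glutamine for CTP and GMP, fell by 0.56 (SE 0.07, adjusted p = 2.01e-06) and 0.32 (SE 0.05, adjusted p = 6.79e-06). Without wild-type replicate 1, Gclc stood at -0.58, Gclm at -0.56 and Ctps at -0.40. Asns then stood at -0.74, Aldh18a1 at -0.70, Gmps at -0.32, Slc1a4 at -1.04 and Slc3a2 at -0.45.

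Slc3a2, the heavy chain that carries Slc7a5 to the membrane, fell by 0.51 (SE 0.05, adjusted p = 1.44e-08). Slc7a5 (LAT1), which exports glutamine in exchange for leucine, fell by 0.65 in the mean (SE 0.09, adjusted p = 1.73e-06) but not in all clones: it stood at 98.8 ± 13.5 CPM in clone 1, 103 ± 1.26 in clone 2 and 197 ± 23.5 in clone 3, against 197 ± 39.4 in wild type. The equality test of the clones passed for Slc7a5 (adjusted p = 4.75e-08). Atf4, the transcription factor of the amino acid response that is known to drive Asns, Slc7a5 and Slc38a2, fell by 0.51 (SE 0.10, adjusted p = 0.000412), with clone 3 at -0.27 and an adjusted p of 0.132. Slc38a1, a carrier of the same family as Slc38a2, fell by 0.21 (SE 0.05, adjusted p = 0.000811). Got2, the mitochondrial partner of Got1, fell by 0.25 (SE 0.05, adjusted p = 0.000451). Foxo3, a factor known to raise Glul, rose by 0.17 in the mean (SE 0.04, adjusted p = 0.00173), with clone 1 at 0.31, clone 2 at 0.23 and clone 3 at -0.05 (adjusted p = 0.526). The clones differed in Foxo3 (adjusted p = 6.15e-06). Besides Atf4, the other listed regulators went down: Ctnnb1, Myc and Nr3c1 stood at -0.19, -0.30 and -0.24 in the mean. Their adjusted p-values by edgeR were 0.000511, 0.00655 and 0.00712. None of them was called in every clone, and the part of any regulator in the Glul values was not tested. The clones differed in 28 of the 41 genes, against 28.5% of all genes, and in all 11 tested carriers.

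**Figure D4:**
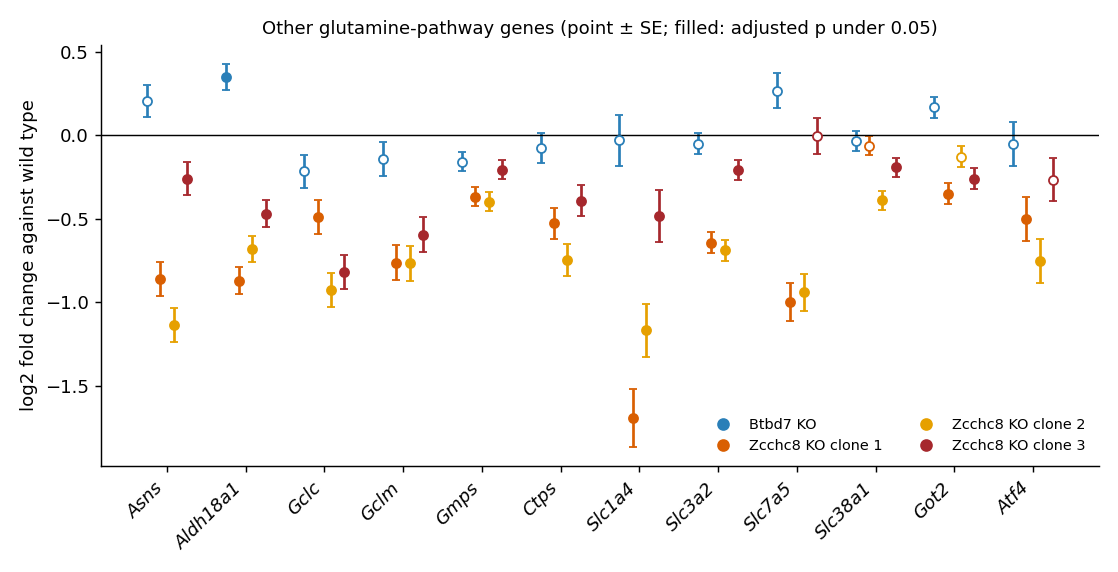
Fitted log2 fold change against wild type in Btbd7 KO and the 3 Zcchc8 KO clones, with the standard error as error bar. Filled points have an adjusted p under 0.05, and 0 marks the wild-type level. The genes drawn are Asns, Aldh18a1, Gclc, Gclm, Gmps, Ctps, Slc1a4, Slc3a2, Slc7a5, Slc38a1, Got2 and Atf4. Foxo3, Ctnnb1, Myc and Nr3c1, and the other genes named for Btbd7 KO except Aldh18a1, are not drawn. Slc1a4 reaches -1.70 in clone 1, and Slc7a5 is low in clones 1 and 2 and near 0 in clone 3.

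In Btbd7 KO the same lists gave 7 genes higher and 2 lower than wild type of 41 tested, beside 7.73% and 8% of all genes. The 7 became 3 with only the groups compared in the fit and 11 without wild-type replicate 2, and the 2 became 1 with only the groups compared, 4 by DESeq2 and 1 without each of the Btbd7 KO libraries in turn. The 7 were Aldh18a1, Cad, Pfas, Mdh1, Mdh2, Slc38a10 and Slc7a6, and the 2 were Ctps2 and Nr3c1, all named because of their call. Cad begins pyrimidine synthesis and Pfas uses glutamine in purine synthesis, and they rose by 0.30 and 0.36 on the log2 scale. Mdh1 and Mdh2, the malate dehydrogenases that work beside Got1 in the shuttle, rose by 0.36 and 0.29.

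Across all 20 libraries, the genes whose log2 CPM followed each of the 4 most closely were ranked among 10777 genes with a mean of at least 50 counts. The libraries share 5 lines and their depths, so the values are descriptions. For Glul they were Itpripl2 (Pearson r 0.933), Slco3a1 (0.920), Azin1 (0.908), Nol11 (0.903) and Hectd2 (0.899). For Slc1a5 they were Nat10 (0.945), Nop14 (0.932) and Nars (0.928), and for Slc38a2 Ski (0.934), Samd4 (0.926) and Maff (0.922). For Got1 they were Pdia6 (0.941), Pdcd11 (0.941) and Myh10 (0.939). Among the 4 genes themselves the values ran from -0.808 between Slc38a2 and Got1 to 0.585 between Glul and Got1, so none followed another as closely as these.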

How the data were processed

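Total RNA was made into stranded Illumina libraries, per the labels' protocols. The submitters' processing notes name STAR 2.7.3a and FastQC; the build, counter and strand setting are not given in the sources used here. The authors deposited raw read counts per gene and per PROMPT region. Of 55471 gene identifiers, 54573 matched GENCODE M21 with version and 55230 without, as Glul did. The 19 columns shared by both gene tables were identical.

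Counts were fitted with edgeR 4.0.16 in R 4.3.3 (glmQLFit, glmQLFTest), 1 fit per table over 5 groups, with TMM factors from the full gene table and filterByExpr by group. Calls had a Benjamini-Hochberg adjusted p under 0.05 over all features tested. CPM used TMM-scaled gene totals, and a pseudocount of 0.5 before log2 for likeness. The script was tested on simulated data. DESeq2 1.42.0, other scalings and filters, a replicate block, cell lines as replicates and leaving out libraries were tried. The genes and lists were chosen with earlier results of these data known. The text names the 4 genes, the edited genes, the list genes called in the mean and in each clone, the fixed names Asns, Slc7a5, Slc3a2, Slc38a1, Got2 and Atf4 and the closest genes by r. Foxo3, Ctnnb1, Myc and Nr3c1, and the genes named for Btbd7 KO, were added for their calls. 1 further fixed name is not reported here. Library depth and its range are given with the results.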

Additional observations from a re-analysis of the deposited data

Results flagged for a closer look

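Of 65 groups of 4 libraries examined for a library far from the others, 6 had one, where chance gives about 1 in 20. In CPM, Glul was lowest in clone 2 replicate 2 (2.49) and Slc38a2 in clone 2 replicate 3 (632), and Slc7a5 was highest in clone 2 replicate 1 (105). In the PROMPT table the Glul region was highest in Btbd7 KO replicate 3 (0.124 CPM) and clone 1 replicate 2 (0.135 CPM), each from 1 count. The Slc1a5 region was highest in Btbd7 KO replicate 2 (0.133 CPM), the only library of that group with a count.

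The 3 Zcchc8 KO clones, edited in the same gene, differed in Glul (adjusted p = 0.000367), Slc1a5 (adjusted p = 5.59e-05) and Slc38a2 (adjusted p = 5.37e-05) by edgeR's quasi-likelihood test. The same test called 28.5% of all 15297 genes tested. These genes were picked with the values of each clone known, so the p-values are not independent of that choice.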

How the results depend on the processing

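The log2 fold changes of the 4 genes in the mean of the clones kept their direction under the other scalings, filters and tests tried, except that Slc38a2, at 0, ran from -0.09 to 0.15 with single libraries left out. With Btbd7 KO as control, Glul moved to -2.19, Slc38a2 to 0.50 and Got1 to -0.88; with cell lines as replicates, Slc38a2 moved to 0.25 and Got1 to -0.60. The Got1 test of equal clones passed with no count filter (adjusted p = 0.0458), with only the groups compared (0.0151), and without wild-type replicate 1 (0.0124) or 2 (0.0497) or clone 1 replicate 2 (0.0362); leaving out each library gave 0.0124 to 0.254, and the cause was not tested. The Got1 PROMPT log2 fold change of 3.19 ran from 2.62 to 7.04 with single libraries left out, the last against libraries at 0 and so no bound. The fold for the Slc38a2 region against the wild-type floor ran from 8.74 to 14.8 with single libraries left out. Leaving out a wild-type library lowered it, because fewer wild-type libraries raise the floor. This fold was 14.4 without TMM, a setting chosen after seeing the data.

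Replicate numbers are shared between groups, but the block rests on a number only: same-numbered libraries correlated at -0.087 to 0.15, and 4 of 20 correlated best with their own number. With the replicate block the Got1 test gave an adjusted p of 0.0289, the pathway counts were again 23 lower and 1 higher, and no other call of the 4 genes changed.

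Pathway genes called higher in Zcchc8 KO numbered 1, and 2 with DESeq2 size factors, with no count filter and with Btbd7 KO as control, 3 without TMM, 0 with cell lines as replicates, and 1 to 2 with single libraries left out (2 without wild-type replicate 3 or 4). Those called lower numbered 23, and 2 with cell lines as replicates. They numbered 18 without TMM and 20 with only the groups compared. By DESeq2, with DESeq2 size factors and with no count filter they numbered 21. In Btbd7 KO, 7 were higher, 3 with only the groups compared, and 5 to 11 with single libraries left out (11 without wild-type replicate 2); 2 were lower, 4 by DESeq2, 1 with only the groups compared, and 1 to 3 with single libraries left out. Of all calls in the clones' mean, 44.8% were higher, against 61.7% without TMM, 55.8% by DESeq2 and 86.9% with cell lines as replicates. Of the pathway genes named for the clones, only Gclm and Aldh18a1 were called with cell lines as replicates. Depth limits the Glul gene counts, at 8 to 17 per library in clone 3, and the PROMPT counts.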
